A study of Homo sapiens with 6 samples.

Results

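The core spliceosome outside the SF3B complex was followed in HK2 cells, a human proximal tubular epithelial cell line, with and without overexpression of SIRT4, a sirtuin that is usually found in mitochondria. The module was a fixed list of 39 gene symbols, and all 39 were found among the 38100 genes of the count table and passed the filter on low counts. They were read in 5 groups by role, with 3 U1 snRNP proteins, 7 Sm proteins, 7 U2 snRNP and branch-site proteins, 13 proteins of the U5 snRNP and the U4/U6.U5 tri-snRNP, and 9 proteins of the NTC (the Prp19 complex and its partners) and RNA helicases. The series held 6 samples of polyadenylated RNA. Cells of 3 samples carried an adenovirus with an empty vector (AdCtrl) and cells of the other 3 an adenovirus for SIRT4 (AdSirt4). All 6 samples were stimulated with TGF-β1, are labelled wild type, and lack an unstimulated counterpart here, so that each difference below is one between stimulated cells. HK2 is a single immortalized line, and the study states that n denotes technical replicates in its experiments in vitro. If that holds for the sequenced samples, the p-values measure only the spread between such replicates.

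The spliceosome removes introns in a series of assemblies on each transcript. The U1 snRNP recognizes the 5′ splice site, the U2 snRNP pairs with the branch site, and the preassembled U4/U6.U5 tri-snRNP then joins. U4 is unwound from U6, the NTC stabilizes the active centre, and RNA helicases drive the rearrangements, the release of the mRNA and the recycling of the parts. Each of the U1, U2, U4 and U5 snRNPs carries a ring of the same Sm proteins around its small nuclear RNA. These are housekeeping genes, expressed in the tubular epithelium as in other tissues. The study asked whether SIRT4 changes splicing through a U2-recruiting factor, and the comparison here addresses whether the mRNAs of the machinery itself differed with SIRT4.

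The total counts lay between 41537353 and 85684748 per sample, and each of the 39 genes had at least 949 counts in every sample. SIRT4 itself was measured at 0.573, 1.11 and 1.11 CPM with AdCtrl against 51.2, 92.7 and 84.0 CPM with AdSirt4, where CPM are counts scaled to a common library size with TMM factors (trimmed mean of M-values). The groups were far apart, as the labels say, although AdSirt4 replicate 1 held the least SIRT4 of the 3 (log2 fold change 6.36, SE 0.36, adjusted p 0.00801 in edgeR). The call was lost when any one AdCtrl sample was left out, with an adjusted p of 0.0559 to 0.203. AdSirt4 replicate 1 stood apart from the other 5 samples. Its counts deviated from those of AdSirt4 replicates 2 and 3 along transcript length, with short transcripts high and long ones low (Spearman's rho -0.66 across 15894 genes, which share 1 library and are not independent), and sample weights estimated by limma gave it 0.0795 against 0.984 to 2.92 for the others. The main results below are therefore given with and without it. Of 13 epithelial and proximal tubule markers, 7 reached 1 FPKM (fragments scaled by transcript length and library size) in every sample, and KRT8, KRT18, EPCAM and PAX8 were among them. The 6 others, with CDH1 and the segment-defining genes LRP2, CUBN, AQP1 and SLC34A1 among them, stayed below 1 FPKM throughout. The summed level of the 13 was 892 to 932 FPKM in AdCtrl and 859 to 1067 FPKM in AdSirt4. KRT8 and KRT18 held 411 and 212 FPKM of it in the AdCtrl mean. The summed markers of endothelium did not exceed 0.0678 FPKM, and those of other nephron cells 0.169 FPKM. The leukocyte list summed to 18.6 to 23.8 FPKM, of which CD68 held 17.0 to 22.2 FPKM. PTPRC did not exceed 0.0186 FPKM, and CD3E was at 0 counts in every sample. The fibroblast list summed to 8.66 to 9.93 FPKM, and of it only COL1A1 and LUM reached 1 FPKM.

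The Sm genes were the most abundant of the module per transcript length. SNRPB, which encodes the Sm proteins B and B', had the highest level of all 39 genes with 216 ± 8.74 FPKM in AdCtrl (SD, n = 3). It was followed by SNRPD2 with 166 ± 9.39, SNRPF with 139 ± 7.14 and SNRPG with 115 ± 13.7 FPKM, and the AdCtrl ranges of these 4 did not overlap. The median over the 7 Sm genes was 115 FPKM, against 65.5 for the U1 genes, 28.9 for the U2 genes, 23.7 for the tri-snRNP genes and 12.7 for the NTC and helicase genes. DHX15, the helicase that takes apart the spent intron complex, was the exception in the last group with 67.2 ± 2.22 FPKM, and its range overlapped that of SNRNP70 (65.5 ± 1.11 FPKM). The lowest levels were those of CRNKL1, a scaffold protein of the active spliceosome, with 5.93 ± 0.280, and of AQR, an intron-binding helicase, with 6.30 ± 0.386 FPKM, which did not differ beyond their spread. DHX8, the helicase that releases the finished mRNA, followed with 7.46 ± 0.374, and SART1, a tri-snRNP protein, with 9.10 ± 0.159 FPKM. Of the 38 pairs of neighbours in the AdCtrl order, 17 had ranges that did not overlap, and 21 did not differ beyond the spread of 3 samples. SNRPD1 was low for an Sm gene with 10.4 ± 0.395 FPKM. The length by which its count was divided came out at 5.56 kb from the 2 tables, against 0.513 to 1.79 kb for SNRPB, SNRPD2, SNRPE, SNRPF and SNRPG and 3.97 kb for SNRPD3, and a longer divisor gives a lower FPKM for the same count. By TMM-scaled count the AdCtrl samples held 57.2 CPM of SNRPD1 and 70.9 CPM of SNRPF.

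**Figure D1:**
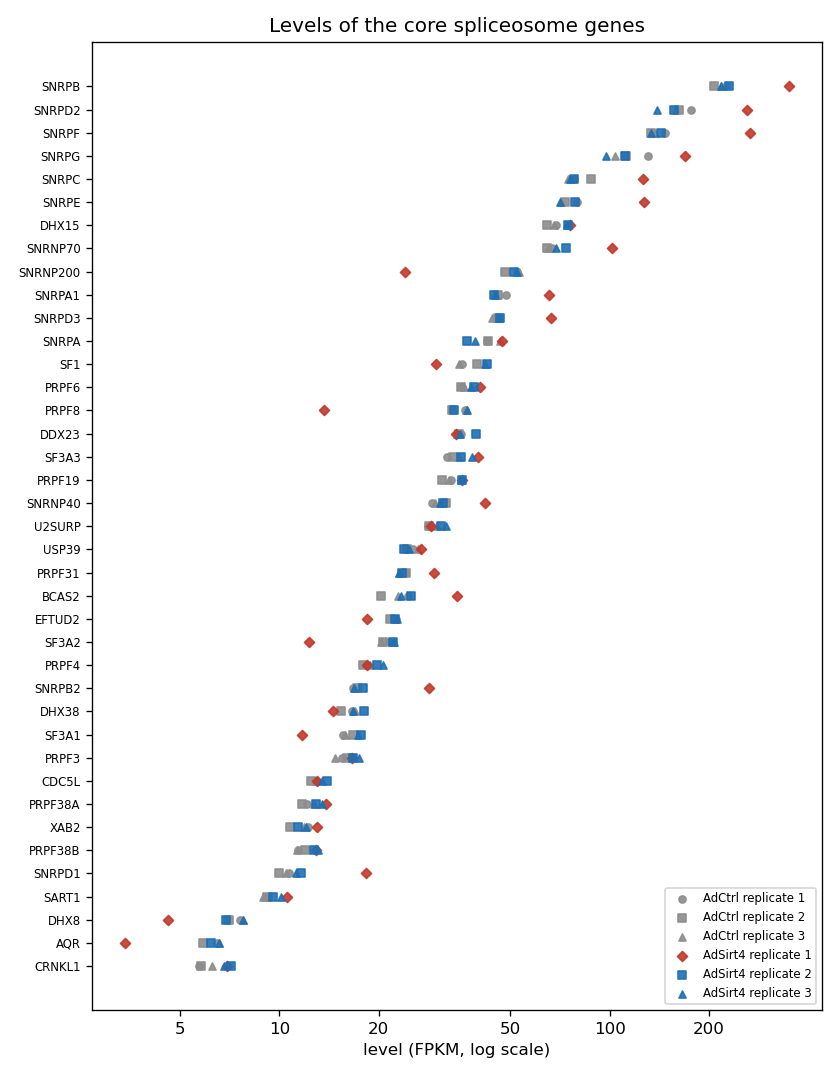
Level in FPKM (horizontal axis, log scale) of each of the 39 genes (vertical axis, ordered by the AdCtrl mean), with 1 point per sample. SNRPB leads with 216 and CRNKL1 closes with 5.93 FPKM in the AdCtrl mean, and AdSirt4 replicate 1 lies to the right for every Sm gene and to the left for PRPF8, SNRNP200, AQR and DHX8.

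The promoters of the module were searched for short motifs, which its definition did not use. In RefSeq sequence (GRCh38.p14) from 250 bases before to 50 bases after the first listed start, available for 37 of the 39 genes, the letters CCGGAAG or their reverse complement CTTCCGG, a core that ETS family factors recognize, were found in 18 promoters, or 48.6%. The same letters were in 10.7% of all 27305 listed promoters and in 17.1% of those of the 13581 tested genes that matched by symbol. The holders were 6 of 7 U2 genes, 4 of 6 Sm genes, 4 of 9 NTC and helicase genes, 3 of 12 tri-snRNP genes and 1 of 3 U1 genes. The letters GATGGCG, found in sites of the factor YY1, were in 6 member promoters (16.2%) and in 6.78% of those of tested genes. TATAAA was in 1 (2.70% against 6.45%), that of SNRPC. The letters CCAAT (45.9% against 35.8%), GCATGCG (5.41% against 5.88%) and TGACGTC (8.11% against 5.08%) were searched too. Both strands were searched for each, no motif contains another, and no test was made. A match says only that the letters are there. The 60 bases just before the start are printed for 4 holders, 2 of them Sm genes, to show where the match sits (5′ to 3′ on the gene's strand, match in capitals). They lie at chr20:2470790-2470849 (SNRPB, minus strand), chr2:70293459-70293518 (SNRPG, minus strand), chr22:30356895-30356954 (SF3A1, minus strand), chr2:96305547-96305606 (SNRNP200, minus strand).
SNRPB: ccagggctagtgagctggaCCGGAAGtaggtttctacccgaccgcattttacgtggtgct
SNRPG: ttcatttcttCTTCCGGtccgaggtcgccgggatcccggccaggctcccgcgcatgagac
SF3A1: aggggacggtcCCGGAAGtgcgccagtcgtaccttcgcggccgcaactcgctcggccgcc
SNRNP200: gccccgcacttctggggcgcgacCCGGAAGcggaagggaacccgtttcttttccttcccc

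No gene of the module passed the test of AdSirt4 against AdCtrl after adjustment over the 17720 genes tested (edgeR's quasi-likelihood test with Benjamini-Hochberg adjustment, smallest adjusted p 0.586, that of CRNKL1). Only 0.0113% of all genes, 2 in number, passed this threshold, and with the replicate number as a block 1 did. At an unadjusted p under 0.05, 1 member was higher and 0 lower, against 4.43% higher and 3.5% lower of all genes, and with the replicate block 0 members were. DESeq2 called 0 members after adjustment and 3 at an unadjusted p under 0.05, all higher (206 and 1638 of all 17720 genes). The shift of the module was small and mostly upward. The fold change was above 0 for 31 of 39 members (79.5%), against 53.4% of all genes, and the median log2 fold change was 0.17 against 0.021 over all genes. The 3 AdSirt4 samples lay above the 3 AdCtrl samples without overlap for 14 members (35.9%) and below for 0, against 9.66% and 9.77% of all genes. An exact permutation test of 3 against 3 samples gives such a gene its smallest p, 0.1. The shares over all genes were not matched for level. By AdCtrl mean, the median level was 28.9 FPKM for the members against 4.49 FPKM over all genes. Without AdSirt4 replicate 1, 28 members (71.8%) had a fold change above 0, against 49.4% of the 18287 genes tested in that fit. The median over all 39 members was 0.078, against -0.0046 over the 17720 genes of the main fit. In that comparison of 2 against 3 samples, 16 members (41.0%) were higher without overlap and 2 (5.13%) lower, against 21% and 20.7% of all genes.

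**Figure D2:**
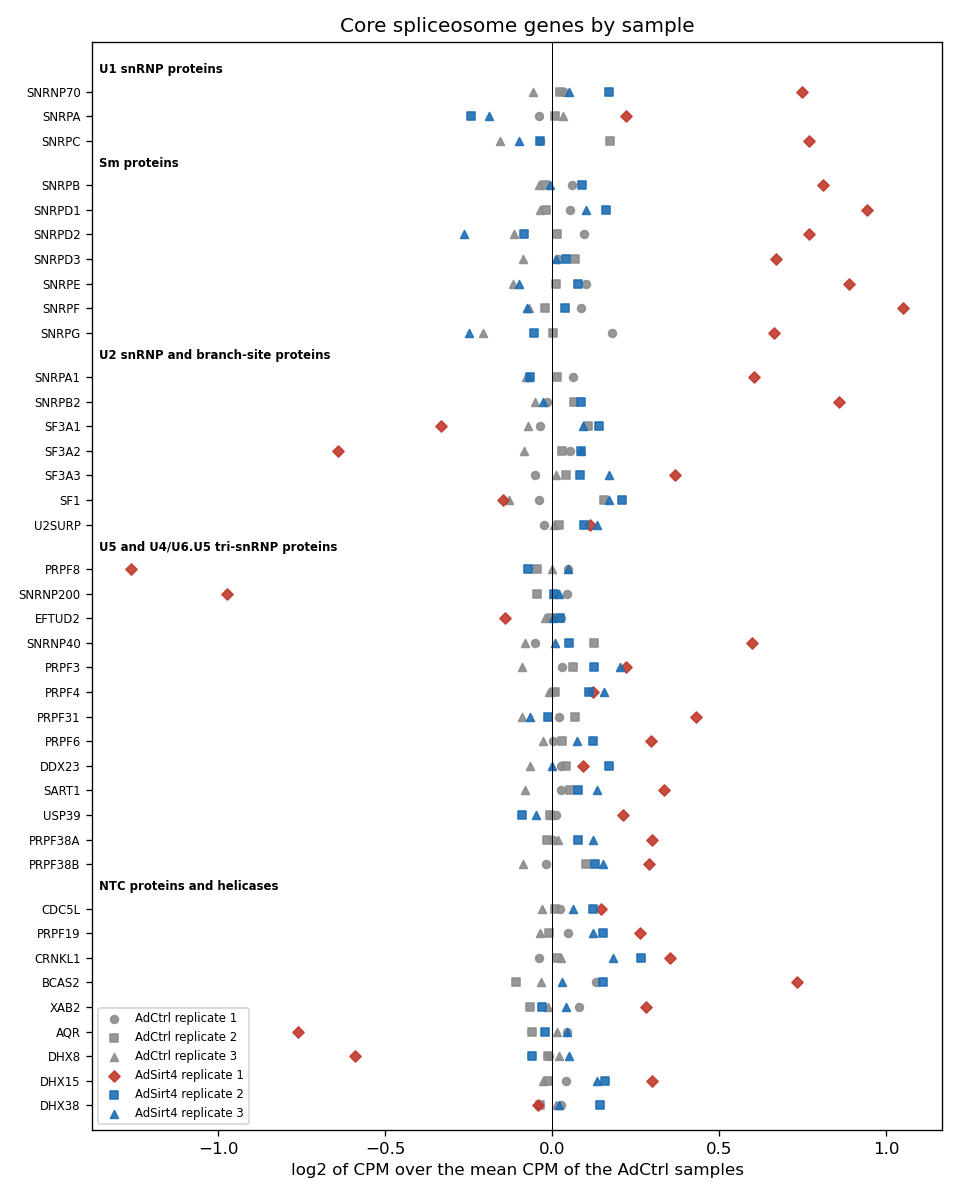
Log2 of each sample's CPM over the mean CPM of the AdCtrl samples (horizontal axis) for the 39 genes (vertical axis) by group, with 1 point per sample. AdSirt4 replicate 1 (red) is the highest of the 6 samples in 27 genes and the lowest in 9, with all 7 Sm genes among the former and PRPF8 and SNRNP200 among the latter.

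The 3 U1 snRNP genes did not share a direction, and 0 had an unadjusted p under 0.05. SNRNP70 encodes the 70-kDa protein that binds the first stem-loop of U1 RNA (chr19:49085419-49108605, build hg38, GENCODE v29), and was at 125, 124 and 118 CPM with AdCtrl against 205, 138 and 127 CPM with AdSirt4 (log2 fold change 0.35, SE 0.19, adjusted p 0.697 in edgeR). All 3 AdSirt4 values lay above the AdCtrl values, the first of them far above the other 2, and the log2 fold change without that sample was 0.11. SNRPC encodes U1-C, which steadies the pairing of U1 with the 5′ splice site, and was at 71.1, 82.3 and 65.4 CPM with AdCtrl against 124, 71.1 and 68.1 CPM with AdSirt4. Only AdSirt4 replicate 1 left the AdCtrl range, and the log2 fold change of 0.27 became -0.072 without it. SNRPA encodes U1-A, which binds the second stem-loop (chr19:40750637-40765389). It was at 61.7, 63.7 and 64.8 CPM with AdCtrl against 73.8, 53.6 and 55.6 CPM with AdSirt4. AdSirt4 replicates 2 and 3 lay below every AdCtrl value while replicate 1 lay above them (log2 fold change -0.057, SE 0.14, adjusted p 0.894 in edgeR). Without replicate 1, SNRPA was lower in AdSirt4 (log2 fold change -0.22, SE 0.051, adjusted p 0.0285 in edgeR) and was the 1 member called in that fit. In it 3.37% of all genes were called higher and 3.34% lower, and 1 of 39 members is 2.56%. The voom fit of limma with sample weights called it lower as well (log2 fold change -0.22, adjusted p 0.0389). That fit weighted AdSirt4 replicate 1 at 0.0795, so that it rested mostly on the same samples as the fit without it. It called 1685 of 17720 genes. Over all alternatives the adjusted p of SNRPA ran from 0.0285 to 0.991.

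All 7 Sm genes had a fold change above 0, with a median log2 of 0.35 and a range of 0.17 to 0.45, but 0 had an unadjusted p under 0.05 (smallest p 0.0852, adjusted p 0.678, both of SNRPD1 in edgeR). AdSirt4 replicate 1 was the highest of the 6 samples in all 7. SNRPB was at 265, 251 and 248 CPM with AdCtrl against 446, 271 and 253 CPM with AdSirt4 (log2 fold change 0.35). SNRPF, which forms a subcomplex with SNRPE and SNRPG before the ring closes (chr12:95858928-95903828), was at 75.2, 69.8 and 67.5 CPM with AdCtrl against 147, 72.8 and 67.2 CPM with AdSirt4 (log2 fold change 0.43). In both, AdSirt4 replicates 2 and 3 stayed within or close to the AdCtrl range. SNRPD1, a partner of SNRPD2 in the ring (chr18:21612267-21633524), was at 59.4, 56.5 and 55.8 CPM with AdCtrl against 109.9, 64.0 and 61.4 CPM with AdSirt4 (log2 fold change 0.45, SE 0.23). It was the 1 of 7 Sm genes that was higher without overlap, and 0 were lower (all genes 9.66% and 9.77%). SNRPD3, which pairs with the B proteins, was at 180.0, 187 and 168 CPM with AdCtrl against 283, 183 and 179 CPM with AdSirt4 (log2 fold change 0.27). For the other 3, SNRPD2, SNRPE and SNRPG, AdSirt4 replicate 1 was at 165, 244 and 124 CPM, while the mean of the other AdSirt4 samples was 86.1, 131 and 70.4 CPM and the AdCtrl mean 97.0, 132 and 78.1 CPM. Without AdSirt4 replicate 1 the Sm median turned to -0.014, with 3 genes above 0 and 4 below and a range of -0.18 to 0.13. Across the 7 genes AdSirt4 replicate 1 exceeded the mean of AdSirt4 replicates 2 and 3 by 0.64 to 1.07 on the log2 scale. Several Sm genes have processed pseudogenes, and SNRPB a close paralog in SNRPN, so that reads could have been shared with such copies in the counting.

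Among the U2 snRNP and branch-site genes the median log2 fold change was 0.11, with 5 of 7 above 0 and 0 with an unadjusted p under 0.05. SF3A3, a subunit of the SF3A complex of the U2 snRNP (chr1:37956975-37990921), was at 101, 108 and 106 CPM with AdCtrl against 135, 111 and 118 CPM with AdSirt4. All AdSirt4 values lay above the AdCtrl values (log2 fold change 0.21, SE 0.11, adjusted p 0.678 in edgeR), and the log2 fold change without replicate 1 was 0.12. U2SURP, a U2-associated protein with an SR-related domain, was at 238, 246 and 243 CPM with AdCtrl against 262, 259 and 266 CPM with AdSirt4. The groups did not overlap, and AdSirt4 replicate 1 lay close here to the other 2 AdSirt4 samples (log2 fold change 0.11, without it 0.11). SNRPB2 and SNRPA1 encode U2-B″ and U2-A′, which bind U2 RNA together. SNRPB2 was at 45.2, 47.8 and 44.1 CPM with AdCtrl against 82.8, 48.5 and 44.8 CPM with AdSirt4, and SNRPA1 at 57.7, 55.9 and 52.3 CPM with AdCtrl against 84.0, 52.8 and 52.7 CPM with AdSirt4. In both, AdSirt4 replicate 1 alone stood out, and log2 fold changes of 0.36 and 0.19 became 0.025 and -0.073 without it. The other SF3A subunits were low in that sample. SF3A2 was at 39.4, 38.7 and 35.8 CPM with AdCtrl against 24.4, 40.3 and 40.3 CPM with AdSirt4, and SF3A1 at 89.9, 99.4 and 87.7 CPM with AdCtrl against 73.2, 102 and 98.3 CPM with AdSirt4, with log2 fold changes of -0.12 and -0.019 that became 0.081 and 0.11 without it. SF1, the protein that first binds the branch site, had log2 fold changes of 0.085 with and 0.18 without AdSirt4 replicate 1. Without that library 6 of the 7 genes were above 0, with a median of 0.11.

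Of the 13 tri-snRNP genes 6 were higher in AdSirt4 without overlap and 0 lower (all genes 9.66% and 9.77%), 10 had a fold change above 0 (all genes 53.4%), and 0 had an unadjusted p under 0.05, with a median log2 fold change of 0.13. Without AdSirt4 replicate 1, 6 were higher without overlap and 1 lower (all genes 21% and 20.7%). PRPF3, a U4/U6 protein (chr1:150321476-150353195), was at 44.0, 45.0 and 40.5 CPM with AdCtrl against 50.2, 47.0 and 49.6 CPM with AdSirt4 (log2 fold change 0.18, SE 0.090, adjusted p 0.678 in edgeR). Its partner PRPF4 was at 60.2, 60.4 and 59.7 CPM with AdCtrl against 65.4, 64.8 and 66.8 CPM with AdSirt4 (log2 fold change 0.13). For this pair the 3 AdSirt4 samples lay close together, and the values without replicate 1 were 0.16 and 0.13. PRPF38A and PRPF38B, of which the former is needed to activate the B complex, were similar. PRPF38A was at 72.5, 71.6 and 73.2 CPM with AdCtrl against 89.1, 76.4 and 78.7 CPM with AdSirt4 (log2 fold change 0.17), and PRPF38B at 60.7, 66.0 and 57.9 CPM with AdCtrl against 75.2, 67.2 and 68.4 CPM with AdSirt4 (log2 fold change 0.19). SART1 was at 37.2, 37.8 and 34.5 CPM with AdCtrl against 46.0, 38.5 and 40.01 CPM with AdSirt4 (log2 fold change 0.18). The groups did not overlap in these 3 genes, and without AdSirt4 replicate 1 the values were 0.094, 0.13 and 0.10. PRPF6, the protein that bridges U5 with U4/U6, had log2 fold changes of 0.17 with and 0.093 without AdSirt4 replicate 1, again with no overlap between groups of 3. The 2 largest proteins of the U5 snRNP had fold changes below 0. PRPF8, the protein at the heart of the active centre (chr17:1650629-1684882), was at 301, 283 and 292 CPM with AdCtrl against 122, 278 and 302 CPM with AdSirt4, and SNRNP200, the helicase that unwinds U4 from U6 (chr2:96274336-96305515), at 428, 403 and 417 CPM with AdCtrl against 212, 418 and 422 CPM with AdSirt4. Their values in AdSirt4 replicate 1 lay far below those of the other 5 samples, and log2 fold changes of -0.32 and -0.25 became -0.016 and 0.0081 without that sample. The 5 further genes were EFTUD2, a U5 GTPase, SNRNP40, PRPF31, DDX23 and USP39, with log2 fold changes of -0.036, 0.24, 0.13, 0.089 and 0.029. Without AdSirt4 replicate 1 these were 0.0089, 0.025, -0.043, 0.083 and -0.075, and groups of all 5 overlapped in the full comparison.

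CRNKL1 was the gene of the module with the smallest p. This crooked-neck homolog of the NTC (chr20:20034368-20056046) was at 26.2, 27.2 and 27.4 CPM with AdCtrl against 34.4, 32.4 and 30.6 CPM with AdSirt4, and every AdSirt4 value lay above every AdCtrl value (log2 fold change 0.27, SE 0.092, adjusted p 0.586 in edgeR, unadjusted p 0.0225). With the replicate block the unadjusted p of CRNKL1 in edgeR was 0.0528. The log2 fold change stayed between 0.22 and 0.31 when each sample was left out in turn. Its adjusted p was 0.0668 without AdSirt4 replicate 1 and between 0.0245 and 0.971 over all alternatives. The lowest, 0.0245, came from limma's voom fit with sample weights, the only fit of 18 that called CRNKL1. That fit called 1685 of 17720 genes. PRPF19, the ubiquitin ligase that gives the NTC its name (chr11:60890730-60906588), was at 87.8, 84.4 and 82.8 CPM with AdCtrl against 102, 94.4 and 92.4 CPM with AdSirt4 (log2 fold change 0.18, SE 0.088, adjusted p 0.678 in edgeR). DHX15 (chr4:24517441-24584550) was at 231, 223 and 220.3 CPM with AdCtrl against 276, 251 and 246 CPM with AdSirt4 (log2 fold change 0.20, SE 0.097, adjusted p 0.678 in edgeR). CDC5L, a core NTC protein, was at 91.5, 90.4 and 88.1 CPM with AdCtrl against 99.5, 97.9 and 94.0 CPM with AdSirt4 (log2 fold change 0.11). In these 3 genes the groups did not overlap, and values without AdSirt4 replicate 1 were 0.13, 0.14 and 0.088. BCAS2, another core NTC protein, was at 35.6, 30.1 and 31.7 CPM with AdCtrl against 53.9, 36.1 and 33.2 CPM with AdSirt4, so that the groups overlapped and replicate 1 stood apart (log2 fold change 0.34, without it 0.086). AQR and DHX8 were at 40.3 and 30.5 CPM in AdSirt4 replicate 1, against a mean of 68.9 and 45.8 CPM in the other AdSirt4 samples and 68.3 ± 2.55 and 45.9 ± 0.585 CPM in AdCtrl (SD, n = 3). Their log2 fold changes of -0.20 and -0.17 became 0.0062 and -0.0092 without it. XAB2, a partner of AQR, and DHX38, the helicase of the step between the 2 splicing reactions, had log2 fold changes of 0.10 and 0.042, and of 0.00065 and 0.078 without AdSirt4 replicate 1. Over the 9 genes, 4 were higher without overlap and 0 lower (all genes 9.66% and 9.77%), and with that library left out 4 were higher and 0 lower (all genes 21% and 20.7%). For them the median log2 fold change was 0.11 with and 0.086 without AdSirt4 replicate 1, where 8 of 9 were above 0.

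Transcript length, read from the ratio of the 2 deposited tables, followed the split in AdSirt4 replicate 1 within the module. For the 12 genes under 2 kb the CPM of this sample exceeded the mean of AdSirt4 replicates 2 and 3 by a median log2 of 0.72, for the 17 genes of 2 to 5 kb by 0.15, and for the 10 genes over 5 kb the median difference was -0.23. Spearman's rho of length and difference was -0.74 across the 39 genes and -0.66 across 15894 genes, a description of 1 library. SNRPF (0.513 kb) and PRPF8 (8.30 kb) marked the ends with 1.07 and -1.25. SF3A2 (1.85 kb) was low for its length with -0.73, SNRPD1 and SNRPD3 were high for theirs with 0.81 and 0.64, and U2SURP (8.47 kb) was at -0.00157. The cause of the length trend in AdSirt4 replicate 1 was not tested. In bulk RNA, fewer cells that express a gene and less RNA per cell cannot be told apart, in this sample or between the groups.

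**Figure D3:**
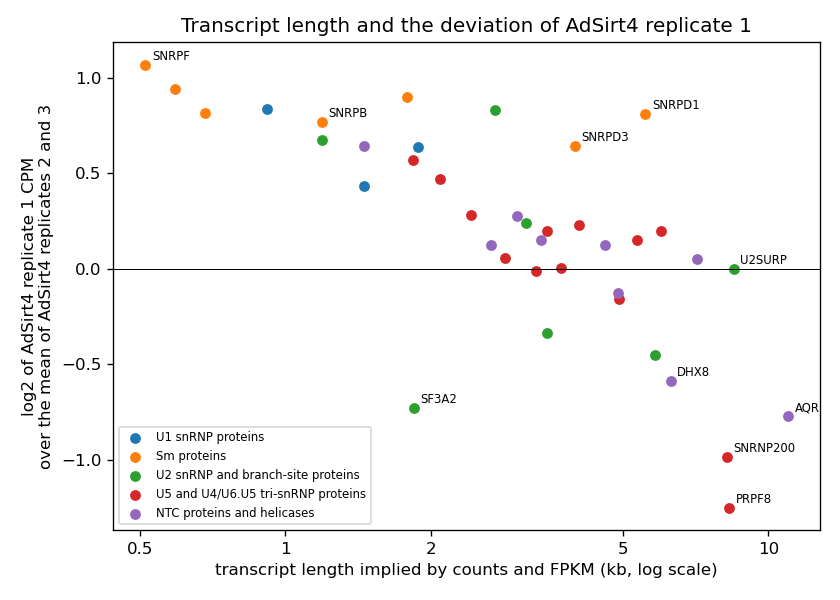
Log2 of the CPM in AdSirt4 replicate 1 over the mean CPM of AdSirt4 replicates 2 and 3 (vertical axis) against transcript length in kb (horizontal axis, log scale), with 1 point per gene coloured by group. The points fall from 1.07 for SNRPF to -1.25 for PRPF8, with SF3A2, SNRPD1 and SNRPD3 away from the trend.

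The medians of the groups of genes depended on how this library was treated. When each library's trend of log2 CPM on length was removed in edgeR, the median log2 fold change was 0.22 for the Sm genes, 0.094 for the U1 genes, 0.081 for the U2 genes, 0.12 for the tri-snRNP genes and 0.14 for the NTC and helicase genes, and 0 members passed the adjusted threshold. At an unadjusted p under 0.05, 7 members (17.9%) were higher and 1 (2.56%) was lower in this fit, against 7.64% and 6.33% of all genes. Without AdSirt4 replicate 1, 10 members (25.6%) were higher and 2 (5.13%) lower at this threshold, against 11.8% and 12.5% of all genes. The sign of the fold change was the same in all 17 alternatives for 23 of 39 members, and the 14 members without overlap were among them. For those 14, leaving out a sample or adding the block could hardly reverse the sign, because every AdSirt4 value lay above every AdCtrl value. The Sm and U1 medians turned below 0 without AdSirt4 replicate 1. For SNRPD1, whose divisor was long, removal of the trend raised the log2 fold change to 0.55, while it was 0.13 without the library.

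**Figure D4:**
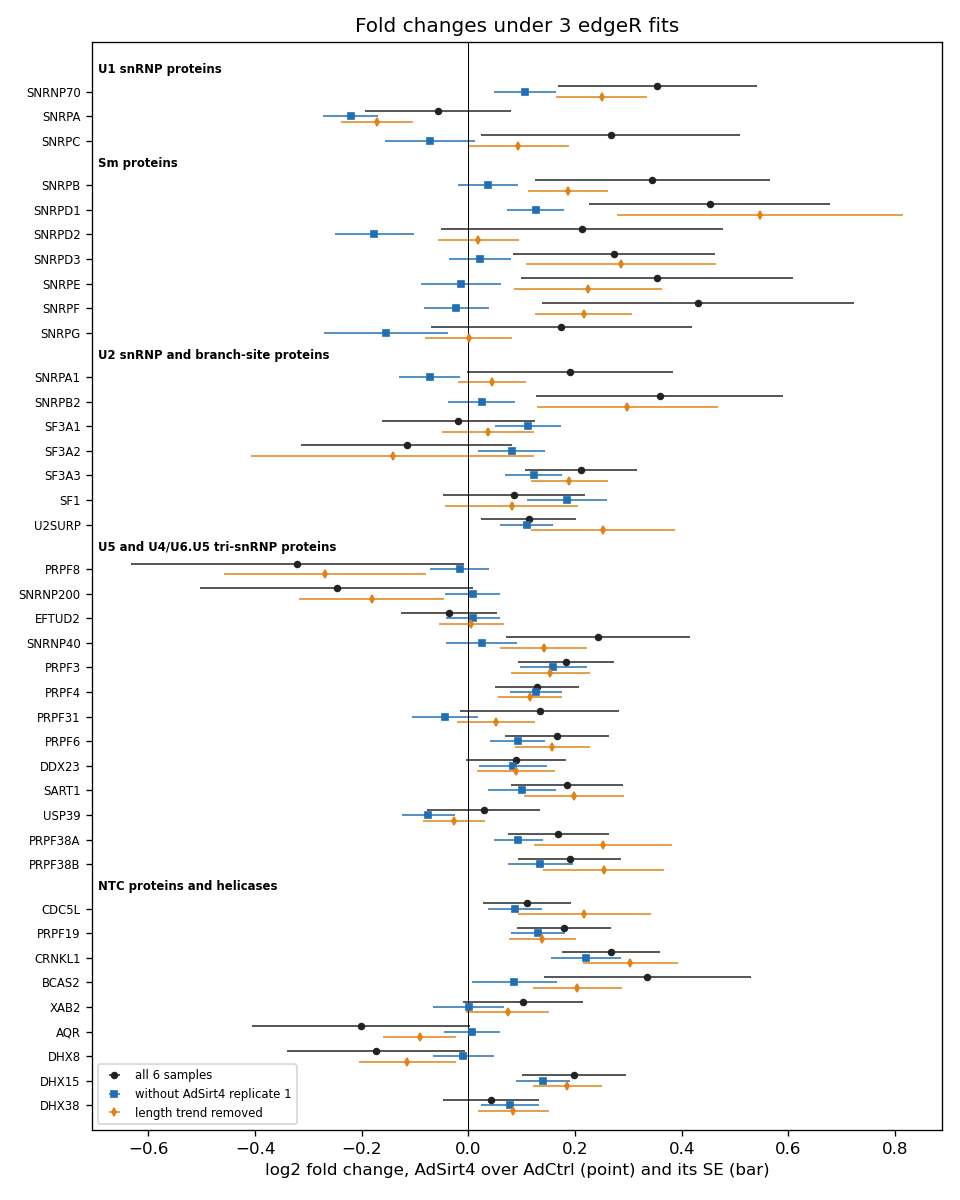
Log2 fold change of AdSirt4 over AdCtrl with its SE (horizontal axis) for the 39 genes (vertical axis) in edgeR fits of all 6 samples, without AdSirt4 replicate 1 and with the length trend removed. For CRNKL1 the 3 estimates were 0.27, 0.22 and 0.30, while for SNRPF they were 0.43, -0.022 and 0.22.

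Other genes of the splicing machinery, 55 in 6 lists, were read from the same fit. None was called after adjustment (0 higher and 0 lower in edgeR), 1 was higher and 0 lower at an unadjusted p under 0.05 (all genes 4.43% and 3.5%), and 11 were higher without overlap and 0 lower (all genes 9.66% and 9.77%). Without AdSirt4 replicate 1, 6 were higher and 6 lower by p (all genes 11.8% and 12.5%), and 15 were higher without overlap and 8 lower (all genes 21% and 20.7%). The fold change was above 0 for 51 of 55 genes in all samples (all genes 53.4%) and for 30 of 55 without that library, and the median log2 fold change was 0.17 with and 0.028 without AdSirt4 replicate 1. The 1 gene at an unadjusted p under 0.05 in the fit of all samples was DDX20, the helicase of the SMN complex that loads Sm rings, at 29.8, 28.3 and 29.02 CPM with AdCtrl against 42.7, 32.7 and 34.1 CPM with AdSirt4 (log2 fold change 0.33, SE 0.12, adjusted p 0.612 in edgeR), and its log2 fold change was 0.20 without AdSirt4 replicate 1. WDR77, a partner of the methyltransferase that modifies Sm proteins, had a log2 fold change of 0.24, and of 0.090 without that library. LSM6 of the LSm ring, the Sm-like ring of U6 RNA, was at 13.6, 13.3 and 13.2 CPM with AdCtrl against 27.1, 17.1 and 14.1 CPM with AdSirt4 (log2 fold change 0.53, SE 0.23, adjusted p 0.643 in edgeR), and LSM8 had a log2 fold change of 0.20. With that library left out these were 0.21 and -0.042. All 7 LSm genes were above 0 with a median of 0.18, and 6 of 7 were below 0 without AdSirt4 replicate 1 with a median of -0.18. In the remaining lists the smallest p belonged to PRPF39 and LUC7L among the U1-associated factors (log2 fold changes 0.27 and 0.31), to WBP4 and IK among the other tri-snRNP and B complex proteins (0.39 and 0.22), to CTNNBL1 and PLRG1 among the NTC-related and step factors (0.21 and 0.19), and to SNRNP48 and SNRNP35 of the minor spliceosome (0.15 and 0.34). Leaving out AdSirt4 replicate 1 gave 0.18 for PRPF39, 0.12 for LUC7L, 0.17 for WBP4, 0.089 for IK, 0.11 for CTNNBL1, 0.10 for PLRG1, 0.12 for SNRNP48 and 0.017 for SNRNP35.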

How the data were processed

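RNA of HK2 cells was measured in 3 AdCtrl and 3 AdSirt4 samples, all with TGF-β1, and grouped by sample title. The cell-line label carries another number in each sample, while every title names HK2, and all were taken as HK2. The authors deposited whole-number counts per gene without normalization, and a second table whose unit is not named. The authors' second table was read as FPKM, normalized by length and library size, because counts over FPKM gave 1 transcript length per gene in all samples, within 5% for 11758 of 15894 genes. This length was used as transcript length. Per the submitters' processing notes, fastp 0.21.0, HISAT2 2.1.0, StringTie 2.1.5 and DESeq2 1.30.1 were used with build hg38. The role of each, whether strand was used in counting and how reads shared by gene copies were treated are not given in the sources used here. Libraries were made from poly-A RNA with random hexamers, and 3 counts is the limit that a count of 0 allows, for counting error only. The members, groups and gene lists were chosen with earlier results of these data known, so that no p was adjusted over a list and no list was tested. Groups were compared with edgeR 4.0.16 in R 4.3.3 (filterByExpr with a minimum count of 10, TMM, robust quasi-likelihood test, Benjamini-Hochberg adjustment over 17720 genes, threshold 0.05), with DESeq2 1.42.0 and limma 3.58.1 as alternatives, and tables were made in Python 3.11.15. SE is the fold change over the square root of the F statistic. Further alternatives were RLE scaling, other count filters, lowess removal of each library's length trend (span 0.3), log2(FPKM + 1) and log2(FPKM + 0.1), and leaving out each sample. Single genes were compared by a two-sided exact permutation test. Members named were, per group, up to 4 with the smallest p, those with the highest and lowest FPKM, those without overlap at an absolute log2 fold change of at least 0.2, and those with an adjusted p under 0.05 in the fit of all samples or without AdSirt4 replicate 1. Of the other spliceosome genes, the 2 with the smallest p per list were named. The other members were named to account for all 39. Same-numbered samples deviated together (Pearson's r of deviations from group means across genes 0.102 to 0.222, against -0.184 to 0.0816 for the rest). The numbers of the titles were therefore taken as possible pairs, and a block for them was fitted as an alternative. Deviations from a group mean sum to 0 within the group, so that these values are not independent and do not settle the pairing. No pair of replicates was a copy (chi-square per gene 10.1 to 233). In counts simulated for this comparison (17628 genes), edgeR recovered 46 of 67 genes changed 1.5-fold and 67 of 67 changed 2-fold. The simulation gave every gene the same dispersion and held no length trend and no library like AdSirt4 replicate 1. These shares therefore do not give the power of the real comparison.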

Additional observations from a re-analysis of the deposited data

How the results depend on the processing

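The number of genes called after adjustment moved from 2 to 206 in DESeq2, 1685 in limma voom with sample weights, 12 with the length trend removed, 5 with all genes of at least 1 count, 4 with at least 10 counts in every sample, 1 on log2(FPKM + 1), and 5 on log2(FPKM + 0.1) or with a mean FPKM of at least 1. With the replicate block it was 1, with the block and the length trend removed 6, and the block changed no other call, but members with an unadjusted p under 0.05 were 0 higher with the block and 6 higher and 1 lower with both. That number was 3 higher in DESeq2, 7 higher and 1 lower with the length trend removed, and 9 higher and 1 lower in voom, which called 1 member higher (CRNKL1) and 1 lower (SNRPA). Of all 17720 genes, 1638 had an unadjusted p under 0.05 in DESeq2, 2476 with the length trend removed and 4835 in voom. With the block 1276 did, and with the block and the length trend removed 2466 did. Without AdSirt4 replicate 1, 16 members were higher without overlap and 2 lower, against 21% and 20.7% of all genes. With the length trend removed, 1 member was lower without overlap. The share of all genes is not given for that fit, so this count is not read further. When each sample was left out in turn, 0 to 1227 genes were called, of the members 0 higher and 0 to 1 lower, and at an unadjusted p under 0.05 0 to 10 higher and 0 to 2 lower, with the top counts without AdSirt4 replicate 1. Of all genes tested, 668 to 4446 had an unadjusted p under 0.05 in these fits. The medians then ran over -0.014 to 0.49 for Sm, -0.072 to 0.42 for U1 and 0.10 to 0.17 for U2 genes, and the U1 median was -0.037 in voom. Of 663 log2 fold changes of members under alternatives, 36 in 16 members had the other sign. In voom these were SNRPC -0.037, SNRPD2 -0.12, SNRPG -0.097, SNRPA1 -0.060, SF3A1 0.12, SF3A2 0.070, EFTUD2 0.014, PRPF31 -0.021, USP39 -0.076 and XAB2 -0.011. With the length trend removed, without and with the block, they were SF3A1 0.037 and 0.035, EFTUD2 0.0057 and 0.0060, and USP39 -0.028 and -0.028. USP39 was at -0.012 on log2(FPKM + 1) and -0.012 on log2(FPKM + 0.1). With samples left out, the ranges that crossed 0 were SNRPA -0.22 to 0.034, SNRPC -0.072 to 0.42, SNRPD2 -0.18 to 0.40, SNRPE -0.014 to 0.54, SNRPF -0.022 to 0.63, SNRPG -0.15 to 0.35, SNRPA1 -0.073 to 0.31, SF3A1 -0.10 to 0.11, SF3A2 -0.23 to 0.081, SNRNP200 -0.40 to 0.0081, EFTUD2 -0.063 to 0.0089, PRPF31 -0.043 to 0.22, USP39 -0.075 to 0.092, AQR -0.34 to 0.0062 and DHX38 -0.0058 to 0.078. The cause of these changes between settings was not tested. Each member had at least 949 counts in every sample, and no alternative varied the depth.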
